A study of Rattus norvegicus with 2 samples.

Results

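The proteasome is the chamber-shaped protease that degrades ubiquitin-tagged proteins in the cytosol and nucleus. Its core particle is a stack of alpha and beta rings, and 3 kinds of beta subunit cut peptide bonds. The regulatory particle caps the core: its base holds a ring of ATPases that unfold the substrate, and its lid removes ubiquitin. Immunoproteasome forms can take the place of the cutting subunits, among other settings after interferon. Much of the peptide pool shown on MHC class I comes from proteasome products. Genes were taken by symbol, as all probe sets with 1 gene symbol that starts with Psma, Psmb, Psmc, Psmd, Psme or Psmf and a digit, leaving out the immunoproteasome genes Psmb8, Psmb9, Psmb10, Psme1 and Psme2. This gave 37 genes on 50 probe sets, of 14217 genes with a probe set of their own and 31099 probe sets in all. They comprise 7 alpha ring, 6 beta ring, 9 base and 8 lid genes, 3 chaperones of base assembly, and an activator and an inhibitor of the core. The remaining 2, Psmc3ip and Psme3ip1, match the symbols but encode partner proteins, not subunits.

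Signals were measured in NKR-P1B+ and Ly49s3+ natural killer (NK) cells, lymphocytes that kill infected or altered cells, on 1 Affymetrix array per population. Both came from spleens of PVG.7b rats aged 8 to 12 weeks, 9 rats in all, with no treatment of the animals named, and were sorted as CD3-, NKR-P1A+ cells positive for NKR-P1B, an inhibitory lectin-like receptor, or for Ly49s3, an activating one, but not both. Whether RNA of several rats was pooled on an array is not stated in the labels, and sort purity was above 90%. Without replicates no test was possible, so each difference describes these arrays, and the arrays' number limits the precision.

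All 9 NK markers on the array were above the floor of 20.4, the median of all signals, in both populations, and 5 of them were at least 25% apart. Prf1 (4024 in NKR-P1B+, 3006 in Ly49s3+ cells), Gzmb (3973 in NKR-P1B+, 2549 in Ly49s3+ cells), Il2rb and Ncr1 were higher in NKR-P1B+ cells, and Eomes (1237 in NKR-P1B+, 1821 in Ly49s3+ cells) in Ly49s3+ cells. Transcripts of Cd3d and Cd3e, of the B cell genes Cd79b and Ms4a1, and of 4 of 5 macrophage markers were below the floor on both. Of 6 T cell genes, Cd3g was above it with 22.3 in NKR-P1B+ and 42.9 in Ly49s3+ cells, Cd5 with 92.7 in NKR-P1B+ and 40.8 in Ly49s3+ cells, and Cd4 only just in Ly49s3+ cells (20.6). Lyz2, the other macrophage marker, had 356 in NKR-P1B+ and 133 in Ly49s3+ cells. Of 3 erythroid markers, Hbb had 276 in NKR-P1B+ and 153 in Ly49s3+ cells. Hemgn had 50.6 in NKR-P1B+ and 131 in Ly49s3+ cells, and Alas2 was below the floor on both. Of 3 platelet markers, only Pf4 was above it, with 30.9 in NKR-P1B+ and 26.6 in Ly49s3+ cells. Of 10 proliferation genes, 8 were nominally higher in Ly49s3+ cells, 5 of them by 1.5-fold or more, with a median difference of −0.60. Pcna (2789 in NKR-P1B+, 2570 in Ly49s3+ cells) and Birc5 (41.3 in NKR-P1B+, 37.1 in Ly49s3+ cells) went the other way. The part of other cells or of dividing cells in the values below was not tested. In such bulk RNA, fewer cells with a transcript and less of it per cell cannot be told apart.

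The proteasome genes had nearly the same signals in both NK populations. None of the 37 was 1.5-fold apart, whereas 10.8% of all 9114 measured genes were (those above the floor on at least 1 array), and 6.4% of the 5409 with a mean signal of at least 100. At a ratio of 25% above equality, 2 of 37 were apart, both higher in Ly49s3+ cells, against 29.7% of all measured genes and 22.2% of the brighter ones. Of all measured genes, 13.8% exceeded that ratio toward NKR-P1B+ and 15.9% toward Ly49s3+ cells. The limit of 100 was chosen after the signals were seen, since every gene of the set except Psmc3ip exceeded it in both populations.

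Over the 37 genes the log2 difference of NKR-P1B+ minus Ly49s3+ cells had a median of −0.019, and over all measured genes one of −0.017. Nominally 15 of 37 were higher in NKR-P1B+ cells, where 47.6% of all measured and 50.5% of the brighter genes were. The differences had an SD of 0.18 across the 37 genes, with a lowest value of −0.43 and a highest of 0.29. The SD was 0.42 across all measured genes and 0.35 across the 5405 brighter ones above the floor on both arrays. Extreme genes weigh on an SD, and differences over all measured genes ran from −5.56 to 5.57. By the median absolute difference the gap was smaller, with 0.12 for the 37 genes, 0.17 for the 5405 and 0.20 for all measured genes. Measurement error of a single difference was put at about 0.21. It is the SD by which 2 probe sets of the same gene disagreed, divided by the square root of 2. It was taken over 812 genes with bright probe sets. Those probe sets share RNA and array, so variation of rats, sorts or arrays is not in it. Of the 37 genes 8 differed by more than 0.21, beside 47.8% of all measured genes and 40.4% of the brighter ones. Psmb5, Psmc1, Psmc3, Psmd4 and Psmd6 did so toward NKR-P1B+ cells, and Psmd1, Psmd3 and Psmd14 toward Ly49s3+ cells. Differences of Psmc3, Psmd1, Psmd3, Psmd4 and Psmd14 also exceeded the disagreement within the set itself, 0.25 over 5 genes. Both limits are 1 SD, which measurement error alone can pass, and the SD of 0.18 across the 37 genes was below both. The genes named are therefore not shown to differ. Psmd14 fell within both limits, at −0.15, as the mean over its probe sets. Across the 37 genes, log2 signals of the arrays correlated with Pearson's r of 0.989, against 0.974 across 8286 genes above the floor on both. The 8286 include many genes of lower signal, and r over the brighter ones alone is not given. Genes of an array share its RNA and scaling and are not independent, so r is a description.

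**Figure D1:**
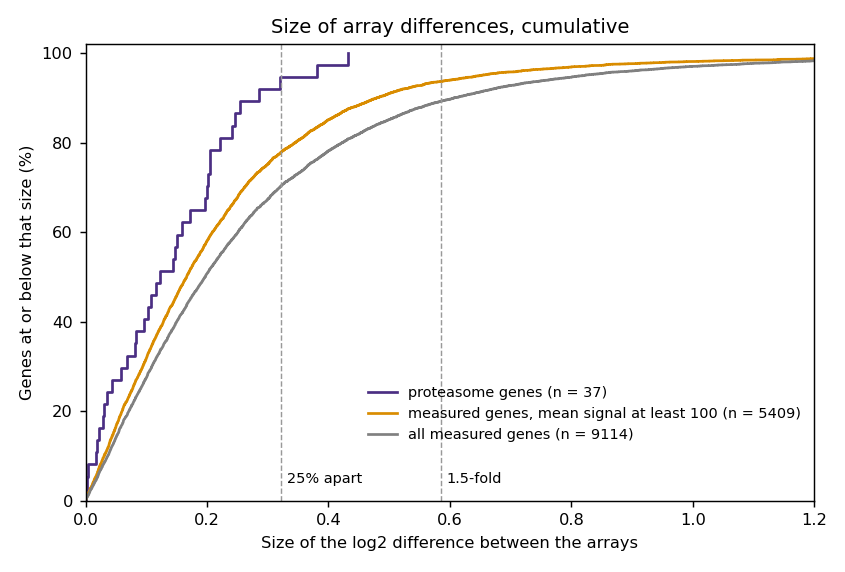
Cumulative share of genes (vertical axis, percent) by the size of their log2 difference between the 2 arrays (horizontal axis), for the 37 proteasome genes, the 5409 measured genes with a mean signal of at least 100 and all 9114 measured genes. The proteasome curve ends at a difference of 0.43, before the 1.5-fold line that 6.4% and 10.8% of the other curves' genes pass.

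The stretches before the gene starts were read for shared motifs, because many proteasome genes are known to be regulated together. A RefSeq promoter window of the GRCr8 assembly, from 250 bases before to 50 after the gene start, was matched for 31 of the 35 genes other than Psmc3ip and Psme3ip1. Windows of Psma7, Psmd6, Psmd12 and Psmd14 were not used here. An ETS site, bound by factors of the ETS family and searched as CCGGAAG on either strand (CTTCCGG on the opposite one), was in 11 of 31 windows (35.5%), in 19.5% of 8584 windows of measured genes and in 8.75% of all 33469 windows. In Psma6, Psmb4, Psmc1, Psmc2 and Psmd11, thus in the core, base and lid alike, such a site on the opposite strand began 16 to 24 bases before the start. That placement, picked after the positions were seen, occurred in 16.1% of the 31 windows, 0.699% of those of measured genes and 0.338% of all. The 100 bases before the start of these 5 genes are shown for this shared placement, 5′ to 3′ on the gene's strand, with motif matches in capitals.

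Psma6 (chr6:78514247-78514346, plus strand): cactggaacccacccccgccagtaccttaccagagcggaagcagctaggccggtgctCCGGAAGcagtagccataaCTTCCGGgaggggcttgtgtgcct
Psmb4 (chr2:185134562-185134661, minus strand): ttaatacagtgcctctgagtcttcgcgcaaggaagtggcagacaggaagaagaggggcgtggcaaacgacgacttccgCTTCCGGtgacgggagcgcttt
Psmc1 (chr6:125122397-125122496, plus strand): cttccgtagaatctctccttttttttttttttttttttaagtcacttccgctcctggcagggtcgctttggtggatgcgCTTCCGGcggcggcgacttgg
Psmc2 (chr4:14162391-14162490, minus strand): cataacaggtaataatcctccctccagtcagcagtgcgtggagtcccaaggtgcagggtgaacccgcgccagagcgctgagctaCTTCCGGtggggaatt
Psmd11 (chr10:65932243-65932342, plus strand): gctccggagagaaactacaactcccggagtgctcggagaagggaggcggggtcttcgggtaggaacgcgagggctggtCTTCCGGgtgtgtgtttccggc

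The antioxidant response element core, TGACNNNGC, the site that the factors encoded by Nfe2l1 and Nfe2l2 bind with small Maf proteins, was in 7 of 31 windows (22.6%). It was in 14.8% of windows of measured genes and 12.1% of all. The 7 were those of Psma3, Psmb2, Psmb5, Psmd1, Psmd3, Psmd9 and Psme4, whose differences between the arrays spanned −0.43 in Psmd3 to 0.25 in Psmb5. The CCAAT box, bound by the factor that Nfya, Nfyb and Nfyc encode and searched as CCAAT on either strand, was in 17 of 31 windows (54.8%), in 38.2% of windows of measured genes and in 37.5% of all. Stretches of Psmb2, Psmb5 and Psmd9 with the antioxidant element are shown, again with matches to any of the 3 motifs in capitals. In Psmb2 the CCAAT box and the element overlap by 1 base.

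Psmb2 (chr5:144254958-144255057, plus strand): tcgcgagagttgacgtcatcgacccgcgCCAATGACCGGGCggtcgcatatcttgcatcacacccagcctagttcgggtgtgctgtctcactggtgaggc
Psmb5 (chr15:32047380-32047479, minus strand): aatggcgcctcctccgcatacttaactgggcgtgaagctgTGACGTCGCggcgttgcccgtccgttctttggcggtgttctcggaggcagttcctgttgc
Psmd9 (chr12:39018265-39018364, minus strand): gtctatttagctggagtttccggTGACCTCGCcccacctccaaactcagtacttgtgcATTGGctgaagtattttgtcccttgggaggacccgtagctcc

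These are matches of letters only, and no measurement here bears on whether a factor binds them.

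In the core particle all 13 genes were within 25%, with a median difference of −0.019. Its differences ran from −0.20 to 0.25, beside −0.43 to 0.29 in the 17 base and lid genes. The alpha subunits form the outer rings, whose tails gate the entry of substrate. Psma2 had a signal of 670.1 in NKR-P1B+ and 582 in Ly49s3+ cells. Psma5 had 528.5 in NKR-P1B+ and 490.2 in Ly49s3+ cells. These 2 were the alpha genes nominally higher in NKR-P1B+ cells, and the other 5 were nominally higher in Ly49s3+ cells. Psma3 had 151 in NKR-P1B+ and 173 in Ly49s3+ cells. Psma4 had 732 in NKR-P1B+ and 812 in Ly49s3+ cells. Psma7 had 1161 in NKR-P1B+ and 1265 in Ly49s3+ cells. In the remaining pair of alpha genes the signals nearly coincided. Psma6 had 1662 in NKR-P1B+ and 1743 in Ly49s3+ cells. Psma1 had 577 in NKR-P1B+ and 585 in Ly49s3+ cells. The ring's median difference was −0.069, and its largest fold was the 1.15 of Psma2. A probe set that reads Psma3 together with the copy Psma3l ran against Psma3 alone, with 1022.5 in NKR-P1B+ cells and 966.5 in Ly49s3+ cells.

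**Figure D2:**
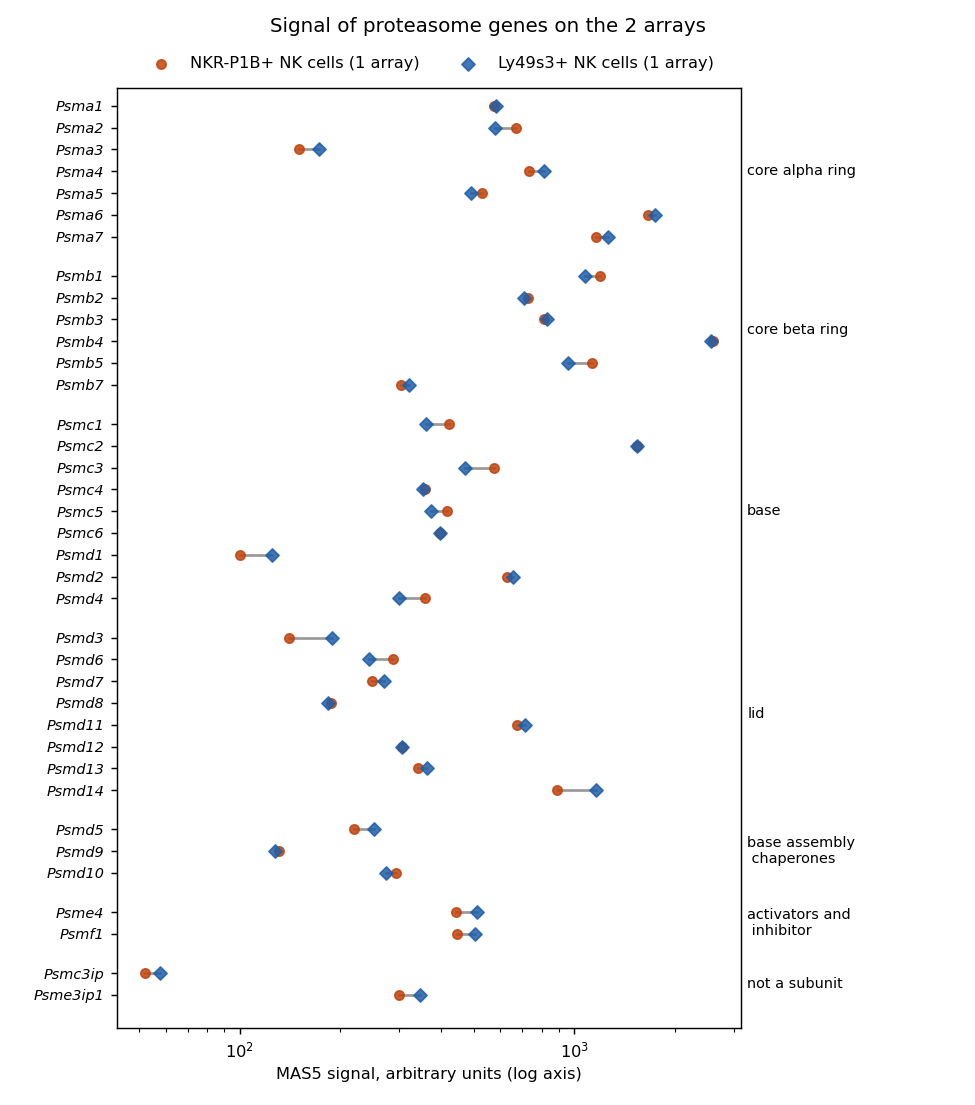
Signal in arbitrary units (horizontal, log axis) of each of the 37 proteasome genes, by subcomplex, with a circle for NKR-P1B+ and a diamond for Ly49s3+ NK cells, 1 array each. The symbols of a gene lie close together or overlap, and the widest gap is that of Psmd3, 140.0 in NKR-P1B+ cells against 189 in Ly49s3+ cells.

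The beta rings carry the active sites on the subunits encoded by Psmb5, Psmb6 and Psmb7. Psmb5, the chymotrypsin-like subunit, had 1133 in NKR-P1B+ and 955.5 in Ly49s3+ cells, a log2 difference of 0.25 and 1.19-fold. That was the largest difference of the core. Of its other probe sets, one was below the floor in both populations and one above it only in NKR-P1B+ cells, at 23.2 against 5.0 in Ly49s3+ cells. Psmb7, the trypsin-like subunit, had 304 in NKR-P1B+ and 321.5 in Ly49s3+ cells, a difference of −0.081. Psmb6, the caspase-like subunit, has no probe set of its own here, and the probe set it shares with the copy Psmb6l1 had 238 in NKR-P1B+ and 215 in Ly49s3+ cells. The other beta subunits are structural, without an active site. Psmb1 had 1192 in NKR-P1B+ and 1079 in Ly49s3+ cells, a difference of 0.14. Psmb2 had 729 in NKR-P1B+ and 707 in Ly49s3+ cells. Psmb3 had 812 in NKR-P1B+ and 829.6 in Ly49s3+ cells. Psmb3 was thus the structural subunit nominally higher in Ly49s3+ cells. Psmb4 had 2594.5 in NKR-P1B+ and 2562.5 in Ly49s3+ cells. The structural subunits other than Psmb1 differed by at most 1.03-fold.

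Set beside their immunoproteasome counterparts, the catalytic genes had small differences, nominally of like sign in both forms. Psmb8, which replaces Psmb5, had 1412 in NKR-P1B+ and 1213 in Ly49s3+ cells, a difference of 0.22 beside the 0.25 of Psmb5. For Psmb9, which replaces Psmb6, the signals were 643 in NKR-P1B+ cells and 575 in Ly49s3+ cells, a difference of 0.16 beside 0.15 on the shared Psmb6 probe set. For Psmb10, which replaces Psmb7, they were 889.8 in NKR-P1B+ and 906 in Ly49s3+ cells, a difference of −0.026 beside −0.081. All 6 differences were 0.25 or smaller. Those of the Psmb9 and Psmb10 pairs were below the probe set disagreement of 0.21. Those of Psmb5 and Psmb8 passed it only slightly. This limit is 1 SD and holds no variation of rats, sorts or arrays, so none of the signs was settled. The activator genes Psme1 and Psme2 had differences of 0.11 and −0.038.

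In the base, 5 genes were nominally higher in NKR-P1B+ cells and 4 in Ly49s3+ cells, with a median difference of 0.022. The 6 ATPases, which unfold substrate and thread it into the core, ranged from −0.0022 to 0.29, with 4 nominally higher in NKR-P1B+ cells. Psmc3 had 574 in NKR-P1B+ and 471 in Ly49s3+ cells, a difference of 0.29 and 1.22-fold, the largest of the whole set toward NKR-P1B+. Psmc1 had 421 in NKR-P1B+ and 361.5 in Ly49s3+ cells, 1.17-fold apart. Psmc5 had 417 in NKR-P1B+ and 374 in Ly49s3+ cells, 1.12-fold. The other 3 ATPases were nearly equal in both. Psmc2 had 1538 in NKR-P1B+ and 1540.1 in Ly49s3+ cells. Psmc4 had 358 in NKR-P1B+ and 353 in Ly49s3+ cells. Psmc6 had 397.1 in NKR-P1B+ and 397.2 in Ly49s3+ cells by its representing probe set. Its second probe set, at 108 in NKR-P1B+ and 110.4 in Ly49s3+ cells, was close to that, whereas another had 321 in NKR-P1B+ and 433 in Ly49s3+ cells, a difference of −0.43.

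The 3 base subunits that are not ATPases ran both ways. Psmd4, which binds ubiquitin chains, had 357 in NKR-P1B+ and 299 in Ly49s3+ cells, a difference of 0.26 and 1.19-fold. Psmd1, a large scaffold protein, had 100.1 in NKR-P1B+ and 125 in Ly49s3+ cells, a difference of −0.32. At 1.249-fold it was the gene next below the limit of 25%. Psmd2, the other large scaffold, which docks proteins that deliver ubiquitinated substrate, had 630.2 in NKR-P1B+ and 656 in Ly49s3+ cells.

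Both genes at least 25% apart were among the 8 of the lid, a share near the 22.2% of the brighter genes. Psmd3, a scaffold subunit, had 140.0 in NKR-P1B+ and 189 in Ly49s3+ cells, a difference of −0.43 and 1.35-fold. It had 1 probe set, so no second reading of it was at hand. Psmd14, the metalloprotease that cuts ubiquitin chains off the substrate, had 890.3 in NKR-P1B+ and 1160 in Ly49s3+ cells, a difference of −0.38 and 1.30-fold. Its second probe set above the floor went the other way, with 144 in NKR-P1B+ and 137 in Ly49s3+ cells and a difference of 0.077, and the mean over both was −0.15. Psmd7, which pairs with Psmd14, had 249 in NKR-P1B+ and 269.9 in Ly49s3+ cells, while its second probe set had 121 in NKR-P1B+ and 100.6 in Ly49s3+ cells. The 2 differences were −0.12 and 0.27. Psmd11, a scaffold subunit, likewise had 673 in NKR-P1B+ and 713 in Ly49s3+ cells on one probe set, but 569.5 in NKR-P1B+ and 514 in Ly49s3+ cells on another, with differences of −0.083 and 0.15.

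The other lid genes differed by at most 1.18-fold. Psmd6 had 287 in NKR-P1B+ and 243 in Ly49s3+ cells, a difference of 0.24. Psmd13 had 340.4 in NKR-P1B+ and 364 in Ly49s3+ cells. The last pair of lid genes was closer still. Psmd12 had 305 in NKR-P1B+ and 306 in Ly49s3+ cells. Psmd8 had 187.5 in NKR-P1B+ and 184 in Ly49s3+ cells. The lid's median difference of −0.090 had 6 of 8 genes nominally higher in Ly49s3+ cells. It became 0.012 when the probe sets of a gene were averaged, where Psmd7 (0.077) and Psmd11 (0.032) turned positive and Psmd14 did not, at −0.15.

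**Figure D3:**
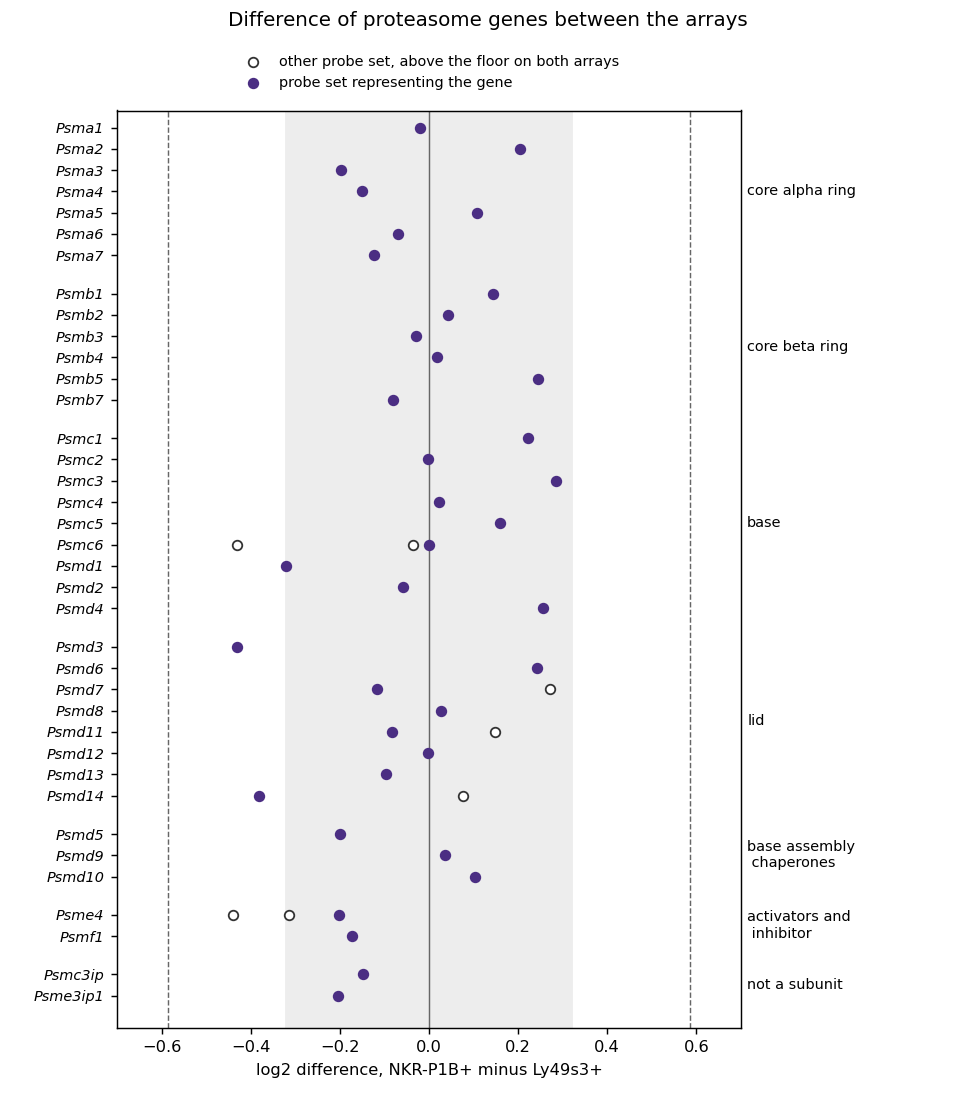
Log2 difference (NKR-P1B+ minus Ly49s3+, horizontal axis) of the 37 proteasome genes by subcomplex, with a filled circle for the probe set that represents the gene and open circles for its other probe sets above the floor on both arrays. The grey band is within 25% and the dashed lines mark 1.5-fold. Of the filled circles those of Psmd3 and Psmd14 leave the band, as do an open circle of Psmc6 at −0.43 and one of Psme4 at −0.44, while the open circle of Psmd14 lies at 0.077.

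Of 8 genes with several probe sets, 5 had more than 1 above the floor on both arrays. In 3 of these (Psmd7, Psmd11 and Psmd14) the probe sets differed in sign, and in none did they differ by more than 1 log2 unit. In the other 2, Psme4 and Psmc6, each of the probe sets was nominally higher in Ly49s3+ cells. Of the 50 probe sets, 44 were above the floor on both arrays, 2 on 1 array and 4 on neither. For 14 of the 37 genes the RefSeq table also names a pseudogene, among them Psmd14 and Psmc6, and whether such copies add signal was not tested.

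The assembly, activator and inhibitor genes were also within 25% by their representing probe sets. The 3 chaperones that help build the ATPase ring had differences from −0.20 to 0.10. Psmd5 had 219.5 in NKR-P1B+ and 252 in Ly49s3+ cells. Psmd9 had 131 in NKR-P1B+ and 127 in Ly49s3+ cells, with a second probe set above the floor only in NKR-P1B+ cells, at 27.3 against 9.2 in Ly49s3+ cells. Psmd10, also known as gankyrin, had 293 in NKR-P1B+ and 273 in Ly49s3+ cells. Psme4, an activator that caps the core without ATPases, had 444 in NKR-P1B+ and 511 in Ly49s3+ cells, a difference of −0.20. Its other probe sets gave −0.32 (147 in NKR-P1B+ against 182 in Ly49s3+ cells) and −0.44 (24.4 against 33.1 in the same order). Psmf1, which inhibits the core in vitro, had 447 in NKR-P1B+ and 504 in Ly49s3+ cells, a difference of −0.17. Psme3, another activator, was read only by probe sets annotated also with Aoc3 and G6pc1. One of them had 261 in NKR-P1B+ and 279 in Ly49s3+ cells, and another 330.3 in NKR-P1B+ and 287 in Ly49s3+ cells. The remaining 2 were below the floor in NKR-P1B+ cells, at 18.0 against 40.2 in Ly49s3+ cells for one, and below it in both populations for the other. Psmc3ip, a recombination cofactor, had 52.2 in NKR-P1B+ and 57.8 in Ly49s3+ cells. Psme3ip1, which binds the Psme3 activator, had 299 in NKR-P1B+ and 345 in Ly49s3+ cells.

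Related genes outside the symbol rule were listed by role. All 5 chaperones of core assembly were within 25%, with a median of −0.043, and the furthest was Psmg1, at 267 in NKR-P1B+ cells and 328 in Ly49s3+ cells. Of the other subunits and bound enzymes, all 6 were likewise within 25%. They include the deubiquitinase genes Usp14 (871 in NKR-P1B+, 915 in Ly49s3+ cells) and Uchl5 (374 in NKR-P1B+, 404 in Ly49s3+ cells). All 8 measured genes of ubiquitin activation and substrate delivery were within 25% too, with a median of 0.011. Among them Ubqln1, a shuttle of ubiquitinated proteins, had −0.29 and −0.26 on its 2 probe sets.

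Of 10 transcription factor and activating protease genes, 9 were within 1.5-fold. Maff, which encodes a small Maf partner of the antioxidant response factors, was the exception, with 591 in NKR-P1B+ cells and 379 in Ly49s3+ cells, 1.56-fold. Nfe2l2 had 1375 in NKR-P1B+ and 1412 in Ly49s3+ cells. Nfe2l1, whose product is known to raise proteasome genes when proteasome activity is low, had 41.2 in NKR-P1B+ and 35.4 in Ly49s3+ cells. Its second probe set gave −0.085 against 0.22, so its direction was not settled. Nfya, Nfyb and Nfyc had differences of 0.17, −0.023 and −0.18. Stat3 had 1242 in NKR-P1B+ and 1033 in Ly49s3+ cells, and both of its probe sets gave a difference near 0.27.

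Whether signals were equal depended on how the arrays were scaled. Both arrays had the same trimmed mean in the deposited values, and centring, quantile normalisation or removal of a loess trend gave medians for the 37 genes from −0.045 to −0.010. Poly-A spike controls are RNAs added during preparation. Their 17 probe sets above the floor on both arrays had a median log2 difference of −0.53. Scaling to that value assumes equal addition to both samples. It moved the median of all measured genes to 0.50 and that of the proteasome genes to 0.51. Relative to all genes, the proteasome median was then 0.015, and on the deposited scale it was −0.0020. With the spikes, 10 of 37 proteasome genes were 1.5-fold or more higher in NKR-P1B+ cells and 0 in the Ly49s3+ cells, and 39.1% of all measured genes were that far apart. The statement that signals were nearly the same is therefore relative to the bulk of genes.

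**Figure D4:**
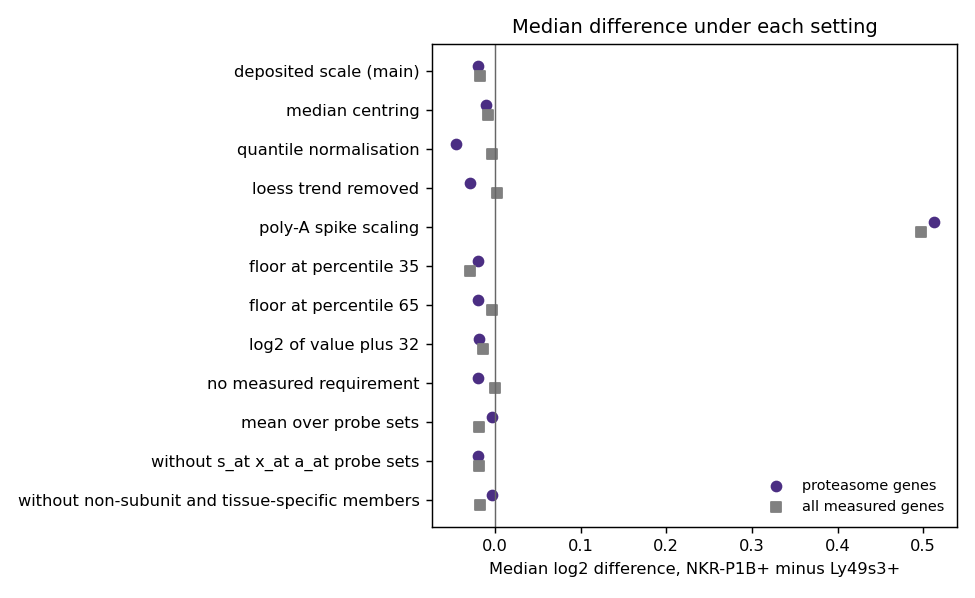
Median log2 difference (NKR-P1B+ minus Ly49s3+, horizontal axis) over the proteasome genes (circles) and all measured genes (squares) under each setting (rows). Both medians lie within 0.05 of 0 except after poly-A spike scaling, where they reach 0.51 and 0.50 together.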

How the data were processed

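RNA from each of the 2 sorted populations was hybridised to 1 array, from 3 ug of total RNA per the labels. The deposited values are intensity signals on a linear scale, made with MAS5 per the submitters' processing notes. The MAS5 version and scaling factor were not found in the labels. Trimmed by 2% at each end, both arrays averaged 100.04. Signal 3′ to 5′ ratios of actin controls were 11.9 (NKR-P1B+) and 13.2 (Ly49s3+), and those of Gapdh controls 2.84 (NKR-P1B+) and 2.77 (Ly49s3+). Signals thus leaned to the 3′ end on both arrays. Whether this adds to the disagreement of probe sets was not tested.

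Signals below 20.4, the 50th percentile of both arrays without control probe sets, were set to it before taking log2. The brightest probe set, by mean log2, stood for a gene. Probe sets were named by the platform annotation; all 37 symbols matched the RefSeq table by gene number. With 1 array per group there are no residual degrees of freedom and no p-value was computed. Full values were named for genes at least 25% apart, for disagreeing probe sets, for the 3 brightest, and for catalytic, Psmd14 and ATPase genes; the other genes follow by group. The genes, lists, motifs and alternatives were chosen with earlier results of these data known. The code was tested on simulated data. Python 3.11.15, pandas 2.3.3 and statsmodels 0.14.6 were used.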

Additional observations from a re-analysis of the deposited data

How the results depend on the processing

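Under 11 alternatives (3 other scalings, the poly-A spikes, 2 other floors, an added 32, no floor requirement, the mean over probe sets, no cross-reading probe sets, no non-subunits), 21 of 44 medians were identical to those reported. The 2 floors, the dropped requirement and the dropped probe sets moved none and say nothing about stability, since the signals of these genes lie above the floors (but for Psmc3ip at the higher one) and none is represented by a cross-reading probe set. A further 19 moved by at most 0.10, the lid among them, which turned to 0.012 with the mean over probe sets. The other 4 came from the poly-A spikes, by construction a common shift: 0.51 for all proteasome genes, 0.51 for the core, 0.55 for the base and 0.44 for the lid, with 10 genes at least 1.5-fold apart in place of 0. The share of all measured genes at least 1.5-fold apart was 10.8%, and 6.40% at a mean signal of at least 100, a limit chosen after seeing the data. Counts of such genes over all measured ones were 982 as reported, 1855 and 523 with floors at the 35th and 65th percentiles, and 503 with the added 32. No paired analysis was possible because each population has 1 array. Differences below about 0.21 are within the disagreement of probe sets, which holds no variation of rats or sorts.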
